A study of Mus musculus with 9 samples.

Results

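The genes described here encode the machinery of oxidative phosphorylation in cultured mouse adipose-derived stem cells (ASCs). They were taken from the gene count table as the protein-coding rows whose symbols begin with Ndufa, Ndufb, Ndufc, Ndufs, Ndufv, Uqcr, Cox4 to Cox8, Atp5 or mt-, or read Sdha, Sdhb, Sdhc or Sdhd. The pattern held 107 of the 54532 genes in the table, 94 of them on nuclear chromosomes and 13 on the mitochondrial genome. It also takes in genes whose products are not subunits of the finished complexes, namely 8 Ndufaf rows that encode assembly factors of complex I and Atp5s, a coupling factor that is not part of the ATP synthase core.

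The study compared ASCs from 3 fat depots of C57BL/6 mice, with 3 libraries each. Sub-ASCs came from subcutaneous fat, Ab-ASCs from abdominal fat and PVASCs from the fat around blood vessels. The cells were grown in a stem cell medium that contained serum, leukemia inhibitory factor and FGF, and all 3 groups were sequenced between passages 3 and 6. The age and sex of the mice and the passage of each single library are not given in the sources used here, and nothing says that the 3 libraries of a group came from separate animals, so the p-values measure the spread between these libraries.

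Oxidative phosphorylation is carried out by 5 complexes in the inner mitochondrial membrane. Complex I takes electrons from NADH and complex II takes them from succinate, and both pass them to coenzyme Q. Complex III hands them on to cytochrome c and complex IV to oxygen, while protons are pumped across the membrane, and complex V uses the proton gradient to make ATP. Mitochondrial DNA encodes a small set of core subunits of complexes I, III, IV and V, transcribed inside the organelle by its own polymerase, and all other subunits are transcribed in the nucleus and imported as proteins. Stem cells in culture are known to draw much of their ATP from glycolysis, and brown fat and striated muscle use tissue-specific isoforms of several complex IV subunits.

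The libraries held 20524173 to 29881036 counted reads. Of the study's stem cell surface markers, Thy1 was at 211 to 904 CPM (counts scaled to the library total times its TMM factor, here and below) and Eng at 104 to 339.8 CPM in the 9 libraries, whereas Ly6a was at 1917 to 2136 CPM in Sub-ASCs, 19.7 to 25.7 CPM in Ab-ASCs and 107 to 116 CPM in PVASCs. Of the markers the study used as negative, Pecam1 was at 43.3 to 46.4 CPM in Sub-ASCs, 11.6 to 13.6 CPM in Ab-ASCs and 177 to 182 CPM in PVASCs, and Ptprc at 7.77 to 9.66 CPM, 1.13 to 1.56 CPM and 2.29 to 3.22 CPM, so neither was absent from the RNA. The study measured all these markers as surface protein, by flow cytometry, and reports them for PVASCs. Ab-ASC replicate 1 stood apart from the other Ab-ASC libraries in many of the members. Among brown fat genes, Ucp1, which encodes the uncoupling protein, had 0 reads in the 9 libraries, which allows up to 0.0916 to 0.161 CPM in a library at 3 reads.

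Nuclear members were higher in the abdominal and perivascular cells than in the subcutaneous ones. Of the 89 nuclear members with enough reads for the test, 75 were higher and 6 lower in Ab-ASCs than in Sub-ASCs (edgeR quasi-likelihood F-test, Benjamini-Hochberg adjusted p under 0.05), with a median log2 fold change of 0.64. Among all 16526 genes tested, 37.0% were higher and 38.3% lower, with a median of -0.03. In PVASCs against Sub-ASCs, 57 nuclear members were higher and 8 lower with a median of 0.37, where 34.7% of all genes were higher and 35.7% lower. In PVASCs against Ab-ASCs, 3 nuclear members were higher and 59 lower with a median of -0.32, where 24.7% of all genes were higher and 32.1% lower. The 3 comparisons share libraries, so their counts are not independent of each other. Without Ab-ASC replicate 1 the members lower in PVASCs than in Ab-ASCs numbered 51. Leaving out the Ndufaf rows and Atp5s, 80 tested nuclear subunits remained, of which 69 were higher and 4 lower in Ab-ASCs than in Sub-ASCs and 53 higher and 6 lower in PVASCs than in Sub-ASCs.

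Ordered by group means, 72 of the 89 nuclear members ran from Ab-ASC through PVASC down to Sub-ASC. Another 7 were highest in Sub-ASC and lowest in PVASC, 6 ran from Ab-ASC through Sub-ASC down to PVASC, and 4 had one of the remaining orders. These are orders of means without a test, and 27 of the 89 were not called between PVASCs and Ab-ASCs. How many of all genes have each order was not counted. The mitochondrial members had another order: 9 of the 12 tested were highest in PVASCs and lowest in Ab-ASCs. In PVASCs against Sub-ASCs 8 of them were higher and none lower (median 0.34), in PVASCs against Ab-ASCs also 8 were higher and none lower (median 0.49), and in Ab-ASCs against Sub-ASCs 1 was higher and 4 lower (median -0.08). The 8 are 66.7% of the 12, where 34.7% and 24.7% of all genes were higher, while the 4 are 33.3%, under the 38.3% of all genes that were lower. Without Ab-ASC replicate 1 the members higher in PVASCs numbered 9 against Sub-ASCs and 10 against Ab-ASCs. DESeq2 also called 8 higher and 0 lower in both PVASC comparisons, and at an unadjusted p under 0.05 edgeR had 0 lower in both. Since these are bulk libraries, fewer cells of a type and less RNA per cell cannot be told apart.

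**Figure D1:**
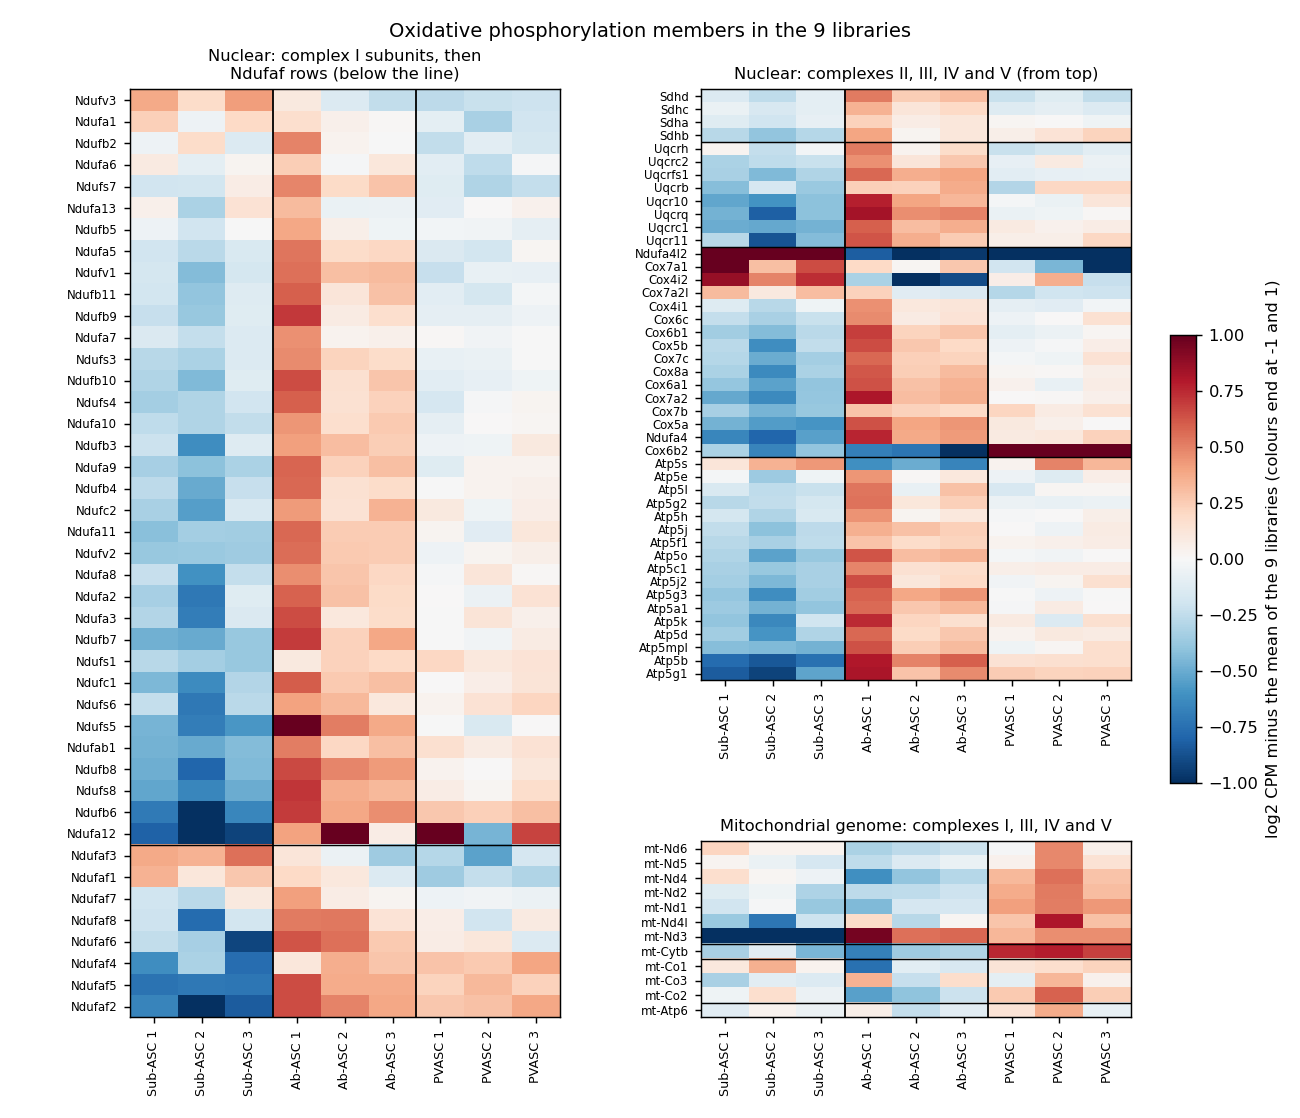
Heat map of 100 of the 101 tested members (rows, grouped by complex and genome) in the 9 libraries (columns, 3 per group), coloured by log2 CPM minus the member's mean over the libraries, with the colour scale ending at -1 and 1. The nuclear rows are mostly blue in Sub-ASC and red in Ab-ASC, the mitochondrial rows are mostly red in PVASC, and Ndufa4l2, Cox4i2, Cox7a1 and Cox6b2 break the pattern.

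**Figure D2:**
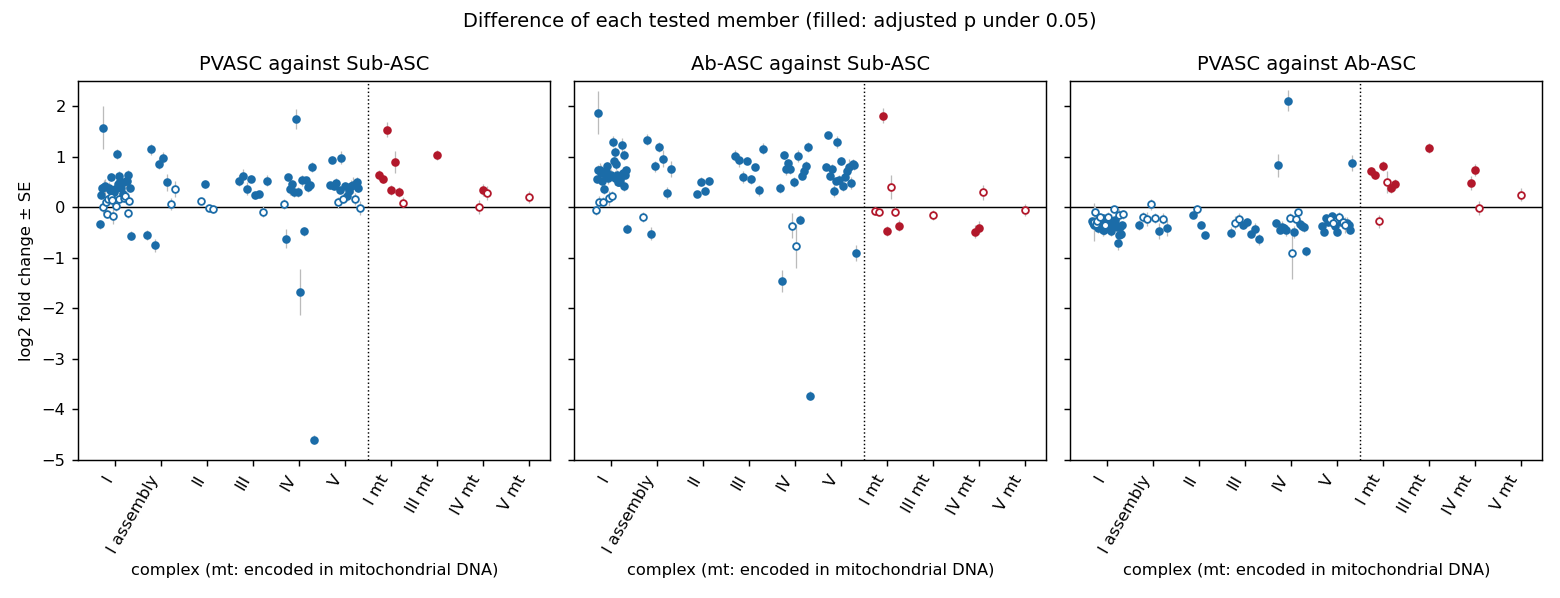
Fitted log2 fold change of each tested member with its SE, by complex, for the 3 comparisons, with nuclear members in blue and mitochondrial members in red, and filled points for an adjusted p under 0.05. In Ab-ASC against Sub-ASC the nuclear points lie mostly above 0 and the mitochondrial points, apart from mt-Nd3 at 1.81 ± 0.15, near or below it.

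The counted reads of the genomes can be compared without scaling, but they need not hold all reads of each genome. Of the short sequence stretches of mt-Co2, mt-Co3, mt-Atp6, mt-Nd4l and mt-Nd3, 98.0% to 100% also occur in other annotated genes. For mt-Nd4 and mt-Co1 the values were 62.2% and 51.1%. Reads from these stretches could be split or left out in the counting. The mitochondrial shares and ratios therefore hold for counted reads only. The 13 mitochondrial members took 0.948 ± 0.102% of the counted reads in Sub-ASCs, 0.713 ± 0.135% in Ab-ASCs and 1.28 ± 0.0363% in PVASCs (SD, n = 3). The 94 nuclear members took 0.584 ± 0.0322%, 0.906 ± 0.08403% and 0.831 ± 0.0163%. Without Ab-ASC replicate 1 the Ab-ASC means were 0.790% and 0.858%. The libraries of each pair of groups did not overlap in the mitochondrial share. In the nuclear share the Sub-ASC libraries, at 0.548% to 0.606%, lay below all others, while PVASC replicate 3 at 0.850% lay above Ab-ASC replicate 2 at 0.849%.

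There were 1.63 ± 0.27 counted mitochondrial reads for each counted nuclear read in Sub-ASCs, 1.54 ± 0.05 in PVASCs and 0.800 ± 0.212 in Ab-ASCs. Sub-ASC and PVASC libraries overlapped in this ratio (1.41, 1.55 and 1.93 against 1.501, 1.51 and 1.596), and the Ab-ASC libraries, at 0.556, 0.941 and 0.901, lay below both. The lowest value is that of Ab-ASC replicate 1, and the remaining Ab-ASC libraries were at 0.901 and 0.941. A single gene, mt-Co1, held 63.5% ± 1.4 of the mitochondrial members' reads in Sub-ASCs, 57.5% ± 3.9 in Ab-ASCs and 52.7% ± 1.9 in PVASCs, and without it the ratio was 0.593 ± 0.084, 0.334 ± 0.064 and 0.727 ± 0.053 in the same order. No test was run on these sums.

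**Figure D3:**
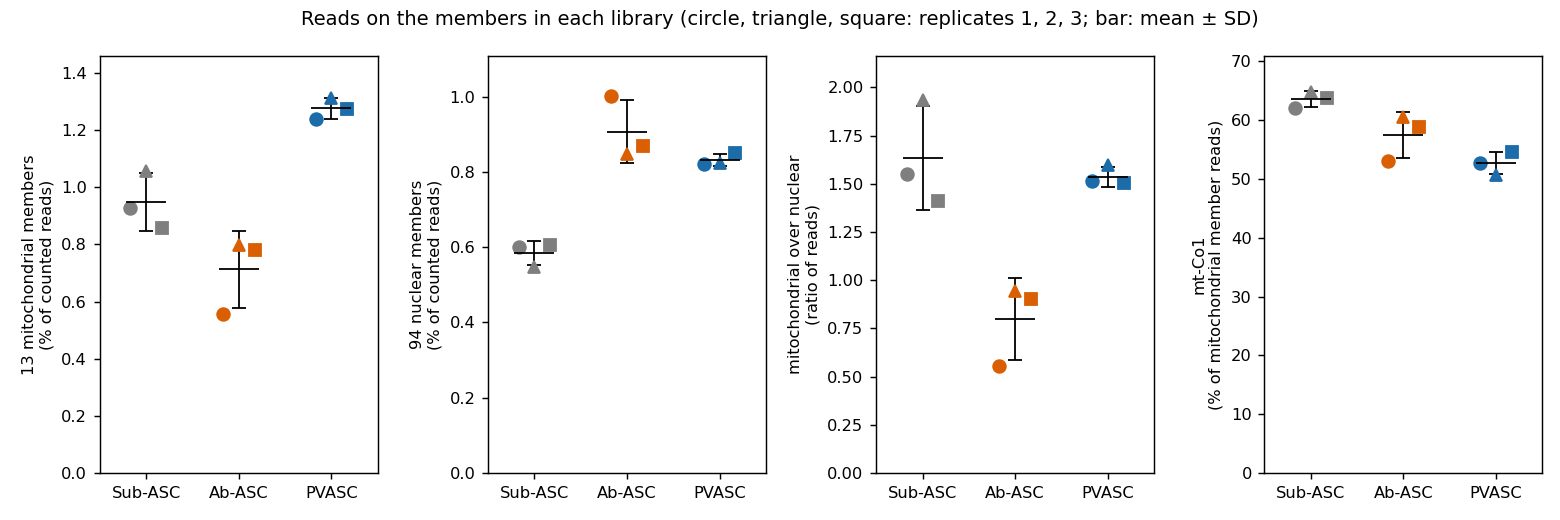
Share of counted reads on the 13 mitochondrial members and on the 94 nuclear members, the ratio of the 2 and the share of mt-Co1 among the mitochondrial members' reads, for each library (points, with the mean and SD of each group as a bar). PVASCs lie highest in the mitochondrial share, Sub-ASCs lowest in the nuclear share and Ab-ASCs lowest in the ratio. Reads of mitochondrial members that also match other genes could be missing from these values.

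Complex I is the largest of the complexes, and its nuclear subunits summed to 1297 ± 95 CPM in Sub-ASCs, 1947 ± 227 CPM in Ab-ASCs and 1566 ± 42 CPM in PVASCs. Of its 36 nuclear subunits, 30 were higher and 1 lower in Ab-ASCs than in Sub-ASCs, 21 were higher and 2 lower in PVASCs than in Sub-ASCs, and 26 were lower in PVASCs than in Ab-ASCs with the other 10 not called. The shares of all genes were 37.0% higher and 38.3% lower, 34.7% and 35.7%, and 24.7% and 32.1% in the same order. Fold changes are on the log2 scale with the SE of the fit.

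The core of complex I binds NADH and carries electrons along iron-sulfur clusters. Ndufv1, which holds the NADH site and the flavin, was at 56.8, 47.4 and 56.8 CPM in the Sub-ASC libraries, 93.9, 78.8 and 79.9 CPM in the Ab-ASC libraries and 54.6, 60.8 and 60.5 CPM in the PVASC libraries. The Ab-ASC libraries lay above the other groups (0.65 ± 0.09, adjusted p = 3.0e-05 against Sub-ASC), and the PVASC and Sub-ASC libraries overlapped (0.13 ± 0.09, adjusted p = 0.22). Its neighbour in the NADH arm, Ndufv2, was at 56.5, 56.8 and 57.5 CPM in Sub-ASCs, 108, 88.3 and 87.4 CPM in Ab-ASCs and 70.95, 74.7 and 76.5 CPM in PVASCs. For Ndufv2 both differences from Sub-ASCs passed, at 0.73 ± 0.08, adjusted p = 3.0e-06 for Ab-ASC and 0.38 ± 0.08, adjusted p = 8.6e-04 for PVASC.

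Ndufs1, the large iron-sulfur subunit, had overlapping PVASC and Ab-ASC libraries, both above Sub-ASC. It was at 61.2, 58.6 and 56.9997 CPM in Sub-ASCs, 79.3, 86.96 and 85.01 CPM in Ab-ASCs and 85.6, 79.6 and 81.5 CPM in PVASCs. The rise over Sub-ASC was 0.48 ± 0.06 in PVASCs and 0.51 ± 0.06 in Ab-ASCs (adjusted p = 1.1e-05 and 6.5e-06), and the difference between the latter 2 groups was -0.03 ± 0.06, adjusted p = 0.72.

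Ndufs3, Ndufs7 and Ndufs8 belong to the arm that reduces coenzyme Q. Ndufs8 was at 25.7, 23.5 and 26.1 CPM in Sub-ASCs, 60.6, 47.5 and 46.2 CPM in Ab-ASCs and 38.9, 37.4 and 41.6 CPM in PVASCs, with no overlap between any of the groups, and rose by 1.03 ± 0.10 in Ab-ASCs and 0.65 ± 0.10 in PVASCs (adjusted p = 1.2e-06 and 8.3e-05). For Ndufs3, at 38.3, 37.2 and 42.3 CPM in Sub-ASCs, 64.4, 54.2 and 52.6 CPM in Ab-ASCs and 44.04, 44.2 and 46.3 CPM in PVASCs, Ab-ASC was higher than Sub-ASC (0.54 ± 0.08, adjusted p = 7.2e-05) and PVASC against Sub-ASC did not pass (0.19 ± 0.08, adjusted p = 0.053). Ndufs7 carries the last iron-sulfur cluster before coenzyme Q. It was at 31.8, 31.9 and 38.2 CPM, 50.9, 41.4 and 44.3 CPM and 33.4, 29.5 and 30.8 CPM, so that Ab-ASC was above both other groups (0.42 ± 0.10, adjusted p = 0.0015 against Sub-ASC and -0.54 ± 0.09, adjusted p = 4.4e-04 for PVASC against Ab-ASC), while PVASC against Sub-ASC gave -0.12 ± 0.09, adjusted p = 0.28.

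Among the accessory subunits, which surround and stabilise the core, Ndufa12 had the largest rise in both comparisons with Sub-ASC and also the widest spread. It was at 7.59, 4.75 and 7.01 CPM in Sub-ASCs, 17.6, 38.95 and 14.03 CPM in Ab-ASCs and 26.6, 9.65 and 21.3 CPM in PVASCs. Ab-ASC replicate 2 was high and PVASC replicate 2 was low against the other libraries of their groups, though no library overlapped with Sub-ASC (1.87 ± 0.42, adjusted p = 0.0015 and 1.58 ± 0.42, adjusted p = 0.0049). Of its annotated 50-base stretches, 17.7% also occur in another gene, Gm15920. Ndufb6, at 17.5, 14.3 and 18.3 CPM, 46.6, 37.4 and 39.5 CPM and 34.5, 33.8 and 35.4 CPM, rose with a narrow spread (1.301 ± 0.10, adjusted p = 1.6e-07 and 1.05 ± 0.10, adjusted p = 1.2e-06), and 31.6% of its stretches are shared with Smim27. Ndufs5, 21.7% of whose stretches are shared with BC002163, at 8.71, 7.46 and 8.04 CPM, 24.03, 17.2 and 15.7 CPM and 12.003, 10.8 and 12.05 CPM, had the largest fall of complex I from Ab-ASC to PVASC (-0.70 ± 0.14, adjusted p = 0.0011).

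A few accessory subunits went the other way. Ndufv3, a small subunit of the NADH arm, was at 51.8, 45.4 and 53.5 CPM in Sub-ASCs, 42.6, 36.3 and 33.6 CPM in Ab-ASCs and 33.4, 34.2 and 34.6 CPM in PVASCs. All Sub-ASC libraries lay above the others, and the log2 fold change was -0.56 ± 0.09 in PVASCs and -0.42 ± 0.09 in Ab-ASCs (adjusted p = 1.1e-04 and 9.6e-04). Ndufa1, a membrane-arm subunit encoded on the X chromosome, was at 34.02, 27.9 and 33.1 CPM, 32.4, 29.9 and 29.1 CPM and 26.9, 23.1 and 25.3 CPM, lowest in PVASCs (-0.34 ± 0.09, adjusted p = 0.0046 against Sub-ASC). Ndufa13 and Ndufb5, accessory subunits of the complex, did not pass in any comparison, with log2 fold changes of 0.10 ± 0.13 and 0.22 ± 0.10 in Ab-ASCs and 0.00 ± 0.12 and 0.03 ± 0.10 in PVASCs against Sub-ASCs.

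The 8 assembly factors of the pattern, which guide complex I subunits into place and leave again, had 6 higher and 1 lower in Ab-ASCs than in Sub-ASCs, where 37.0% and 38.3% of all genes were. In PVASCs 4 were higher and 2 lower, where 34.7% and 35.7% of all genes were. Ndufaf2, a paralog of Ndufa12, was at 8.92, 7.03 and 7.93 CPM in Sub-ASCs, 22.2, 19.9 and 18.4 CPM in Ab-ASCs and 16.95, 17.3 and 18.5 CPM in PVASCs (1.34 ± 0.10, adjusted p = 1.4e-07 and 1.14 ± 0.10, adjusted p = 6.1e-07 against Sub-ASC), but 64.1% of its 50-base stretches also lie in the transcripts of B230220B15Rik, so reads of the pair could be split in counting. Ndufaf3 was at 11.4, 11.2 and 12.9 CPM, 9.55, 8.39 and 6.86 CPM and 7.18, 6.06 and 7.79 CPM, with log2 fold changes of -0.75 ± 0.13 in PVASCs and -0.52 ± 0.13 in Ab-ASCs (adjusted p = 2.1e-04 and 0.0033). Its partner in assembly, Ndufaf4, was at 11.9, 14.7 and 10.8 CPM, 19.8, 23.6 and 22.2 CPM and 22.4, 21.9 and 24.03 CPM and rose by 0.87 ± 0.11 and 0.81 ± 0.11 (adjusted p = 1.5e-05 and 3.0e-05). Ndufaf6 had the largest fall of these factors from Ab-ASC to PVASC (-0.46 ± 0.16, adjusted p = 0.026), with 4.504, 4.24 and 2.82 CPM in Sub-ASCs, 8.26, 7.82 and 6.42 CPM in Ab-ASCs and 5.62, 5.79 and 4.86 CPM in PVASCs. That call was lost without Ab-ASC replicate 2 (-0.43), PVASC replicate 1 (-0.49) or PVASC replicate 3 (-0.39). Ndufaf3 and Ndufaf4 moved in opposite directions in both comparisons with Sub-ASC.

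Complex II, succinate dehydrogenase, is encoded by nuclear genes alone and is also an enzyme of the tricarboxylic acid cycle. All 4 of its subunits were higher in Ab-ASCs than in Sub-ASCs, where 37.0% of all genes were, with the smallest range of any complex (0.27 to 0.52). In PVASCs 1 of 4 was higher, a share of 25% that is under the 34.7% of all genes. Sdha, the flavin-bearing catalytic subunit, was at 186, 176 and 190.0 CPM in Sub-ASCs, 237, 212 and 218 CPM in Ab-ASCs and 205, 202 and 196 CPM in PVASCs (0.27 ± 0.06, adjusted p = 7.6e-04 for Ab-ASC and 0.13 ± 0.06, adjusted p = 0.059 for PVASC against Sub-ASC). Its difference between PVASC and Ab-ASC (-0.14 ± 0.06, adjusted p = 0.043) was lost when any 1 of 7 libraries was left out, with values of -0.16 to -0.10.

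Sdhb, which carries the iron-sulfur clusters, was at 55.6, 51.1 and 55.3 CPM, 88.4, 68.7 and 72.9 CPM and 70.3, 74.1 and 78.7 CPM and was the subunit that also rose in PVASCs (0.46 ± 0.09, adjusted p = 4.7e-04). The membrane anchors Sdhc and Sdhd were high in the Ab-ASC libraries only. Sdhd was at 94.7, 87.5 and 97.5 CPM in Sub-ASCs, 149.6, 123 and 129 CPM in Ab-ASCs and 89.4, 95.7 and 87.9 CPM in PVASCs (0.52 ± 0.08, adjusted p = 4.7e-05 against Sub-ASC, -0.56 ± 0.08, adjusted p = 6.5e-05 for PVASC against Ab-ASC). Sdhc was at 101, 94.7 and 98.9 CPM, 135, 115 and 121 CPM and 96.6, 99.5 and 96.2 CPM, with 0.33 ± 0.06, adjusted p = 4.3e-04 for Ab-ASC against Sub-ASC. In both anchors the PVASC and Sub-ASC libraries overlapped.

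Complex III, the cytochrome bc1 complex, had 8 of 8 nuclear subunits higher in Ab-ASCs than in Sub-ASCs (median 0.86) and 7 of 8 in PVASCs (median 0.45). Of all genes, 37.0% and 34.7% were higher in these comparisons. Uqcrfs1, the Rieske iron-sulfur protein, was at 75.7, 69.7 and 77.2 CPM in Sub-ASCs, 141, 122 and 124 CPM in Ab-ASCs and 88.2, 89.6 and 89.97 CPM in PVASCs. No groups overlapped, and it rose by 0.80 ± 0.07 and 0.27 ± 0.07 over Sub-ASC (adjusted p = 2.4e-07 and 0.003). Uqcrc1, a core protein, was at 104, 103 and 106 CPM, 223, 182 and 189 CPM and 157, 151 and 155 CPM, with 0.92 ± 0.07, adjusted p = 1.2e-07 and 0.56 ± 0.07, adjusted p = 1.3e-05. Its partner Uqcrc2, at 77.2, 80.7 and 82.5 CPM, 132, 105 and 116 CPM and 90.8, 103 and 92.6 CPM, rose less (0.55 ± 0.08, adjusted p = 5.4e-05 and 0.25 ± 0.08, adjusted p = 0.015), and its call in PVASCs was lost without Sub-ASC replicate 1 (0.22) or PVASC replicate 2 (0.21).

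Among the small subunits of complex III, Uqcrq, which binds near the coenzyme Q site, had the largest rise in Ab-ASCs and Uqcr11 the largest in PVASCs. Uqcrq was at 72.6, 57.4 and 76.1 CPM, 180.2, 139 and 142 CPM and 96.6, 98.1 and 102 CPM (1.16 ± 0.11, adjusted p = 1.2e-06 and 0.53 ± 0.11, adjusted p = 0.0011 against Sub-ASC, -0.64 ± 0.11, adjusted p = 4.2e-04 for PVASC against Ab-ASC). Uqcr11 was at 31.7, 21.1 and 28.4 CPM, 59.3, 49.3 and 45.8 CPM and 40.1, 39.997 and 44.4 CPM (0.62 ± 0.13, adjusted p = 0.0012 in PVASCs). Uqcrh, the hinge protein that contacts cytochrome c1, was the one that did not pass in PVASCs, at 105, 87.5 and 101 CPM in Sub-ASCs and 88.4, 91.2 and 95.4 CPM in PVASCs (-0.09 ± 0.11, adjusted p = 0.47).

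Complex IV, cytochrome c oxidase, contained both the general pattern and the members that departed from it the most. Of 16 tested nuclear members, 11 were higher and 3 lower in Ab-ASCs than in Sub-ASCs, 11 were higher and 4 lower in PVASCs than in Sub-ASCs, and 2 were higher and 10 lower in PVASCs than in Ab-ASCs. The shares of all genes were 37.0% higher and 38.3% lower, 34.7% and 35.7%, and 24.7% and 32.1% in the same order. The shares of lower members in both comparisons with Sub-ASCs, 18.75% and 25%, were under those of all genes. Ndufa4 and Ndufa4l2 are counted here, because the Ndufa4 protein is known as a subunit of this complex despite its name. Several subunits of complex IV exist as pairs, a widely used isoform and one restricted to certain tissues or conditions, and the restricted isoforms are given beside the widely used ones.

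The Ndufa4 pair changed the most. Ndufa4l2, a paralog known to be induced by hypoxia, was at 166, 161 and 166 CPM in Sub-ASCs, 13.5, 11.5 and 12.3 CPM in Ab-ASCs and 6.96, 7.42 and 5.91 CPM in PVASCs. The groups were far apart and replicates close together, and the log2 fold change from Sub-ASC was -4.60 ± 0.09 in PVASCs and -3.73 ± 0.08 in Ab-ASCs (adjusted p = 2.5e-13 and 1.1e-12), with PVASC also below Ab-ASC (-0.87 ± 0.09, adjusted p = 8.0e-06). Ndufa4 itself rose, from 68.5, 61.9 and 73.7 CPM in Sub-ASCs to 182, 139.7 and 144 CPM in Ab-ASCs and 115, 116 and 126 CPM in PVASCs (1.19 ± 0.10, adjusted p = 2.9e-07 and 0.80 ± 0.10, adjusted p = 1.2e-05). Per length, Ndufa4l2 made up 75.3% ± 1.4 of the pair's level in Sub-ASCs, 9.21% ± 0.59 in Ab-ASCs and 6.73% ± 1.01 in PVASCs. The pair is the only one of those measured in which the restricted isoform was the larger share in any group.

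To show how the paralogs can be told apart by reads, the first 120 coding bases of each pair member that moved most are given from the GENCODE M21 transcripts, with capitals for bases that have no identical partner when the whole coding sequences are aligned.
Ndufa4: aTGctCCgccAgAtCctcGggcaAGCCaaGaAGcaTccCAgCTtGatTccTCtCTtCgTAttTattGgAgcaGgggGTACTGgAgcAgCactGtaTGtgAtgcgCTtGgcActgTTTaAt
Ndufa4l2: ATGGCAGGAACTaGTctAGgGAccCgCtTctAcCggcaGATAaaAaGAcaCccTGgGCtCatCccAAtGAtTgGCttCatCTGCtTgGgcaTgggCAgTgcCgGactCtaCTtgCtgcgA
Cox6b1: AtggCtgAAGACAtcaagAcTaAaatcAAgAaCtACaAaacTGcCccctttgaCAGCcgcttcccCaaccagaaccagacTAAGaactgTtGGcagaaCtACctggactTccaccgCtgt
Cox6b2: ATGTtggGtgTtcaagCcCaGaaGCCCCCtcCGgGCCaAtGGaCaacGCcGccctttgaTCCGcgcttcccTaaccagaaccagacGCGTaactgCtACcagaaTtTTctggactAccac
Ndufa4 and Ndufa4l2 were identical at 67.8% of 245 aligned bases, and Cox6b1 and Cox6b2 at 63.1% of 255. None of these 4 genes shares a 50-base stretch with any other annotated gene.

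Cox6b2, known as the testis isoform of a subunit at the dimer interface of complex IV, was the nuclear member with the largest rise in PVASCs. It was at 1.24, 0.982 and 1.18 CPM in Sub-ASCs, 0.966, 0.933 and 0.757 CPM in Ab-ASCs and 3.63, 3.22 and 4.58 CPM in PVASCs, low throughout. The PVASC libraries lay above all others (1.75 ± 0.19, adjusted p = 4.4e-06 against Sub-ASC and 2.11 ± 0.21, adjusted p = 4.6e-06 against Ab-ASC). Cox6b1, the widely used isoform, was at 92.01, 86.8 and 97.1 CPM, 189.8, 137 and 142 CPM and 109.6, 113 and 119 CPM, so Cox6b2 was 0.782% ± 0.070 of the pair's level per length in Sub-ASCs, 0.366% ± 0.060 in Ab-ASCs and 2.09% ± 0.31 in PVASCs. The other testis isoforms were not tested: Cox8c had 3 reads and Cox7b2 had 0 reads in all libraries together.

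Cox4i2, an isoform of the regulatory subunit 4 known from lung and from low oxygen, was at 6.22, 4.79 and 5.68 CPM in Sub-ASCs, 2.74, 1.599 and 1.83 CPM in Ab-ASCs and 3.57, 4.37 and 2.89 CPM in PVASCs. Sub-ASCs were highest and Ab-ASCs lowest (-1.45 ± 0.21, adjusted p = 5.3e-05 for Ab-ASC and -0.62 ± 0.19, adjusted p = 0.0098 for PVASC against Sub-ASC), and the latter was lost without PVASC replicate 3 (-0.47). Cox4i1 was at 235, 212 and 249.7 CPM, 353, 277 and 279 CPM and 241, 237 and 252 CPM, with 0.38 ± 0.09, adjusted p = 0.002 for Ab-ASC and 0.07 ± 0.09, adjusted p = 0.53 for PVASC. The coding sequences of this pair were identical at 69.8% of 486 aligned bases.

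Cox7a1, the isoform of heart, muscle and brown fat, was at 2.102, 0.864 and 1.105 CPM in Sub-ASCs, 0.805, 0.711 and 0.847 CPM in Ab-ASCs and 0.611, 0.508 and 0.127 CPM in PVASCs, from 189 reads in all. It was lowest in PVASCs (-1.68 ± 0.45, adjusted p = 0.0054 against Sub-ASC), and the call held in each fit that left out 1 library. The widely used Cox7a2 went up instead, at 45.8, 41.9 and 49.9 CPM, 115, 80.8 and 83.8 CPM and 65.4, 65.9 and 67.6 CPM (1.02 ± 0.12, adjusted p = 5.4e-06 and 0.53 ± 0.12, adjusted p = 0.0013). Cox7a2l, which helps complexes III and IV to form supercomplexes, was at 188, 163 and 188 CPM, 178, 140.3 and 137 CPM and 124, 132 and 131 CPM and fell in PVASCs (-0.48 ± 0.09, adjusted p = 6.0e-04). Its fall in Ab-ASCs (-0.24 ± 0.09, adjusted p = 0.033) was lost without any 1 of 7 libraries, with values from -0.23 to -0.17, and was -0.37 without Ab-ASC replicate 1.

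The muscle isoform Cox6a2 had 24 reads and Cox8b, known from muscle and brown fat, had 6 reads in the 9 libraries, and neither was tested. Their widely used counterparts were among the most abundant nuclear members per length. Cox8a was at 151, 121 and 151 CPM in Sub-ASCs, 289, 223 and 234 CPM in Ab-ASCs and 190.1, 189 and 195 CPM in PVASCs (0.82 ± 0.10, adjusted p = 1.2e-05 and 0.44 ± 0.10, adjusted p = 0.0019). Cox6a1 was at 153, 138 and 152 CPM, 311, 244 and 254 CPM and 205, 189.8 and 210.2 CPM (0.87 ± 0.09, adjusted p = 1.4e-06 and 0.45 ± 0.09, adjusted p = 4.5e-04). Cox7b, on the X chromosome, had a difference between PVASC and Ab-ASC of -0.09 ± 0.06, adjusted p = 0.23, at 65.5, 59.8 and 63.2 CPM, 100.2, 96.7 and 94.7 CPM and 95.8, 87.4 and 91.6 CPM (0.63 ± 0.06, adjusted p = 7.9e-07, 0.54 ± 0.06, adjusted p = 3.2e-06). Of the subunits without a second isoform, Cox5a rose by 1.03 ± 0.07 in Ab-ASCs and 0.59 ± 0.07 in PVASCs (adjusted p = 4.8e-08 and 1.0e-05).

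**Figure D4:**
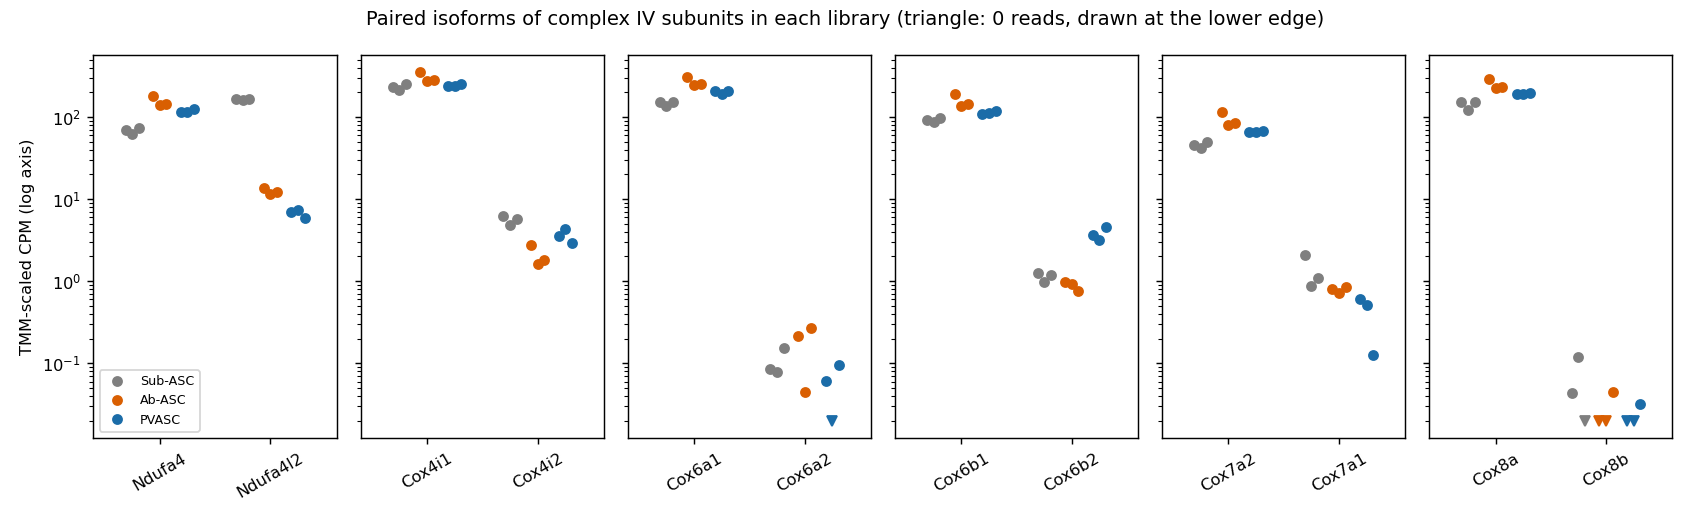
CPM on a log axis of 6 pairs of complex IV isoforms in each library, coloured by group, with the widely used isoform on the left of each panel. Ndufa4l2 falls from above 160 CPM in Sub-ASC to below 14 CPM in the other groups while Ndufa4 rises, and Cox6b2 is highest in PVASC.

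Complex V, the ATP synthase, had 16 of 17 tested nuclear members higher and 1 lower in Ab-ASCs than in Sub-ASCs, and 13 higher in PVASCs with the other 4 not called. Of all genes, 37.0% were higher and 38.3% lower in Ab-ASCs, and 34.7% and 35.7% in PVASCs. Its nuclear members summed to 2216 ± 102 CPM in Sub-ASCs, 4250 ± 496 CPM in Ab-ASCs and 3270 ± 45 CPM in PVASCs, the largest sum among the complexes' nuclear parts. Atp5b, the catalytic beta subunit, accounted for much of it. It was at 612, 579.9 and 621 CPM in Sub-ASCs, 1818, 1469 and 1580.5 CPM in Ab-ASCs and 1156, 1164 and 1172 CPM in PVASCs, with no overlap (1.43 ± 0.07, adjusted p = 1.3e-09, 0.95 ± 0.07, adjusted p = 7.1e-08, and -0.48 ± 0.07, adjusted p = 8.8e-05 for PVASC against Ab-ASC).

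Atp5a1, the alpha subunit that alternates with beta in the catalytic head, was at 469, 434 and 459 CPM, 893, 726 and 755 CPM and 597, 637 and 606 CPM and rose by 0.80 ± 0.07 and 0.43 ± 0.07 (adjusted p = 5.6e-07 and 1.6e-04). The partner subunits, which stand in equal number in the enzyme, thus differed in the size of their rise, and that difference was not tested. Atp5c1, the rotating stalk, was at 135, 129 and 135 CPM, 236, 188 and 190.5 CPM and 176, 178 and 178 CPM (0.62 ± 0.08, adjusted p = 1.3e-05 and 0.41 ± 0.08, adjusted p = 4.4e-04).

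The c-ring of complex V is made from one mature protein that 3 genes encode, Atp5g1, Atp5g2 and Atp5g3. Atp5g1 was at 30.6, 28.7 and 37.8 CPM in Sub-ASCs, 96.3, 66.6 and 75.8 CPM in Ab-ASCs and 64.99, 63.5 and 64.01 CPM in PVASCs, the largest rise of complex V in PVASCs (1.29 ± 0.13, adjusted p = 1.4e-06 and 0.98 ± 0.13, adjusted p = 1.8e-05). Atp5g3 was at 138, 117 and 141 CPM, 271, 235 and 245 CPM and 179.7, 174 and 180.1 CPM (0.92 ± 0.08, adjusted p = 2.2e-07 and 0.43 ± 0.07, adjusted p = 2.3e-04). Atp5g2 was at 90.4, 92.3 and 96.7 CPM, 159.6, 118 and 129 CPM and 105, 104 and 105 CPM (0.54 ± 0.09, adjusted p = 1.4e-04 and 0.17 ± 0.09, adjusted p = 0.11), and 38.3% of its 50-base stretches occur in other genes. Per length, Atp5g1 rose from 5.35% ± 0.48 of the 3 genes' level in Sub-ASCs to 7.59% ± 0.58 in Ab-ASCs and 8.31% ± 0.08 in PVASCs, with no overlap between Sub-ASC and the others.

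Atp5s was the exception in complex V. It was at 4.29, 5.03 and 5.33 CPM in Sub-ASCs, 2.57, 2.798 and 2.49 CPM in Ab-ASCs and 4.03, 5.55 and 4.96 CPM in PVASCs, low in Ab-ASCs alone (-0.90 ± 0.16, adjusted p = 2.6e-04 against Sub-ASC and 0.88 ± 0.16, adjusted p = 5.2e-04 for PVASC against Ab-ASC). Atp5e and Atp5l, small subunits of the head and of the membrane part, had log2 fold changes in PVASCs of 0.10 ± 0.12 and 0.17 ± 0.12 (adjusted p = 0.48 and 0.22). A second row named Atp5o, ENSMUSG00000116933, had 0 reads, and all reads of that symbol lay in the first row.

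The mitochondrial genome encodes 13 proteins, all of them members, and 12 were tested. By level per length, mt-Co1, a catalytic core subunit of complex IV, was the most abundant of all 107 members, at 3901 ± 475 FPKM in Sub-ASCs, 2676 ± 662 FPKM in Ab-ASCs and 4354 ± 138 FPKM in PVASCs. It had 137024, 177960 and 146791 reads in Sub-ASCs, 60792, 114310 and 109692 in Ab-ASCs and 195729, 180871 and 200176 in PVASCs. After TMM scaling it was at 5878, 6989 and 5593 CPM, 3261, 5077 and 4887 CPM and 5978, 6126 and 6362 CPM, so that PVASC against Sub-ASC did not pass (0.00 ± 0.13, adjusted p = 1.00) and Ab-ASC was lower (-0.48 ± 0.14, adjusted p = 0.0063). Without Ab-ASC replicate 1 the latter was -0.30.

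mt-Cytb, the cytochrome b of complex III, rose in PVASCs. It was at 958, 1120.4 and 874 CPM in Sub-ASCs, 751, 938 and 977 CPM in Ab-ASCs and 2030.0, 2066 and 1935 CPM in PVASCs. The PVASC libraries were about level with each other and lay far above all others (1.03 ± 0.10, adjusted p = 1.4e-06 against Sub-ASC, 1.18 ± 0.10, adjusted p = 1.3e-06 against Ab-ASC), and the other groups overlapped (-0.15 ± 0.10, adjusted p = 0.20). None of the 50-base stretches of mt-Cytb occurs in another annotated gene.

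The mitochondrial subunits of complex I form the proton-pumping membrane arm. mt-Nd1 was at 869, 981 and 760.0 CPM in Sub-ASCs, 729, 883 and 879 CPM in Ab-ASCs and 1318, 1415 and 1341 CPM in PVASCs (0.64 ± 0.09, adjusted p = 4.5e-05 and 0.71 ± 0.09, adjusted p = 4.5e-05 for PVASC against Sub-ASC and Ab-ASC). mt-Nd2, at 479, 506 and 421 CPM, 435, 437 and 452 CPM and 673, 746 and 647 CPM, behaved alike (0.56 ± 0.07, adjusted p = 1.7e-05 and 0.64 ± 0.07, adjusted p = 1.2e-05). In both genes the Sub-ASC and Ab-ASC libraries overlapped. mt-Nd4 was at 376, 338 and 322 CPM, 219, 254 and 275 CPM and 419, 489 and 407 CPM, with 3 separate levels (-0.47 ± 0.09, adjusted p = 5.8e-04, 0.34 ± 0.09, adjusted p = 0.0054 and 0.81 ± 0.09, adjusted p = 1.6e-05).

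mt-Nd5 was at 711, 666 and 622 CPM in Sub-ASCs, 586, 634 and 667 CPM in Ab-ASCs and 719, 974 and 773 CPM in PVASCs, and its rise in PVASCs over Sub-ASCs (0.30 ± 0.10, adjusted p = 0.016) was 0.18 and no longer passed without PVASC replicate 2. It also no longer passed without Sub-ASC replicate 3, at 0.25. mt-Nd6, the member on the light strand, lies against the end of mt-Nd5 and was at 160.1, 141 and 141 CPM, 111, 115 and 119 CPM and 137, 193 and 143 CPM. It was lower in Ab-ASCs than in Sub-ASCs (-0.36 ± 0.11, adjusted p = 0.01) and did not pass in PVASCs against Sub-ASCs (0.09 ± 0.11, adjusted p = 0.46). Against Ab-ASC it was higher in PVASCs by 0.46 ± 0.11, and by 0.29 without PVASC replicate 2. The genes mt-Nd4l and mt-Nd4, and mt-Atp8 and mt-Atp6, overlap on the same strand, and mt-Nd5 and mt-Nd6 meet on opposite strands. The strand setting of the counting is not given in the sources used here, so reads from these overlaps cannot be told apart.

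The remaining mitochondrial members were far lower than their neighbours on the same genome. mt-Co2, another catalytic subunit of complex IV, had 4151 reads in all libraries against 1323345 for mt-Co1. It was at 16.3, 18.9 and 16.2 CPM in Sub-ASCs, 11.6, 12.7 and 14.5 CPM in Ab-ASCs and 20.2, 25.3 and 19.96 CPM in PVASCs (-0.40 ± 0.12, adjusted p = 0.0092 for Ab-ASC against Sub-ASC and 0.75 ± 0.12, adjusted p = 2.0e-04 for PVASC against Ab-ASC). Its rise over Sub-ASC in PVASCs (0.35 ± 0.11, adjusted p = 0.016) was lost without Sub-ASC replicate 1 (0.31), Sub-ASC replicate 3 (0.30) or PVASC replicate 2 (0.24). mt-Co3 had 3004 reads, mt-Atp6 2492, mt-Nd3 1140, mt-Nd4l 470 and mt-Atp8 16.

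mt-Co3 was at 10.3, 11.9 and 11.6 CPM, 16.3, 10.9 and 14.4 CPM and 11.97, 16.1 and 13.2 CPM, and mt-Atp6, the proton channel of complex V, at 9.78, 10.8 and 10.1 CPM, 10.997, 8.93 and 9.76 CPM and 11.6, 13.7 and 10.01 CPM, and neither passed in any comparison. mt-Nd4l was at 1.46, 1.14 and 1.64 CPM, 2.15, 1.55 and 1.92 CPM and 2.29, 3.32 and 2.32 CPM, higher in PVASCs than in Sub-ASCs (0.90 ± 0.22, adjusted p = 0.0027). mt-Nd3 was at 2.02, 2.16 and 1.83 CPM in Sub-ASCs, 8.42, 6.35 and 6.46 CPM in Ab-ASCs and 5.47, 5.99 and 6.01 CPM in PVASCs, and was the mitochondrial member that rose in Ab-ASCs too (1.81 ± 0.15, adjusted p = 2.6e-07 and 1.54 ± 0.15, adjusted p = 1.2e-06).

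These low members, apart from mt-Atp8, have near-identical copies in the nuclear genome. A stretch of mouse chromosome 1 (GRCm38), annotated on the minus strand between chr1:24611535 and chr1:24616197, carries pseudogenes of 7 members in a row. Gm28661 at chr1:24614885-24615565 is the copy of mt-Co2 and was identical at 681 of 681 aligned bases. Gm28438 at chr1:24612775-24613119 differed from mt-Nd3 at 1 of 345 bases and Gm29216 at chr1:24615706-24616197 from mt-Co1 at 6 of 492. The following stretches of 60 bases, from the GENCODE M21 transcripts, were chosen to show where reads could and could not be told apart, with capitals for bases that differ between a member and its copy. The first stands for both mt-Co2 and Gm28661.
mt-Co2: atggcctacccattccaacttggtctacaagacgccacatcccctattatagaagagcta
mt-Nd3: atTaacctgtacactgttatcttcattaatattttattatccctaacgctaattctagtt
Gm28438: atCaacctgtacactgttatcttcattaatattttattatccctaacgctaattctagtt
mt-Co1: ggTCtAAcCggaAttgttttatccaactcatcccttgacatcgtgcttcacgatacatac
Gm29216: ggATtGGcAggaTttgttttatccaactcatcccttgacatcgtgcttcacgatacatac
The stretch of mt-Co1 starts at base 1054 of its transcript and the stretches of mt-Co2 and mt-Nd3 at base 1.

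Of all 50-base stretches, 100% in mt-Co2, 99.9% in mt-Co3, 99.5% in mt-Atp6, 98.8% in mt-Nd4l and 98.0% in mt-Nd3 occur in another annotated gene. The values were 62.2% in mt-Nd4, 51.1% in mt-Co1, 8.19% in mt-Nd2, 7.61% in mt-Nd5 and 0 in mt-Nd1, mt-Nd6 and mt-Cytb. In mt-Atp8, the member with the fewest reads, the value was also 0. The copies held reads in numbers near those of the low members: 1806 on Gm28661 for 4151 on mt-Co2, 2673 on Gm28437 for 3004 on mt-Co3, 2879 on Gm10925 for 2492 on mt-Atp6, 1722 on Gm28438 for 1140 on mt-Nd3 and 257 on Gm10222 for 470 on mt-Nd4l. On the copies of mt-Nd4 and mt-Co1 there were 652 and 1349 reads. The levels and fold changes of the 5 low members with copies are therefore uncertain. Reads that match more than 1 place could be split or left out in the authors' counting. Both mt-Co2 with 4151 reads and Gm28661 with 1806 lay far below mt-Co1 with 1323345. Adding the reads of a copy to its member does not restore any reads left out. With the reads of each copy added to its member, 9 mitochondrial members were higher in PVASCs than in Sub-ASCs, 10 were higher than in Ab-ASCs, and 2 were higher and 4 lower in Ab-ASCs than in Sub-ASCs. mt-Nd3 was then still higher in Ab-ASCs than in Sub-ASCs by 1.65 ± 0.11, and the added call was mt-Co3 at 0.35 ± 0.11. What part the copies have in these values was not tested.

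**Figure D5:**
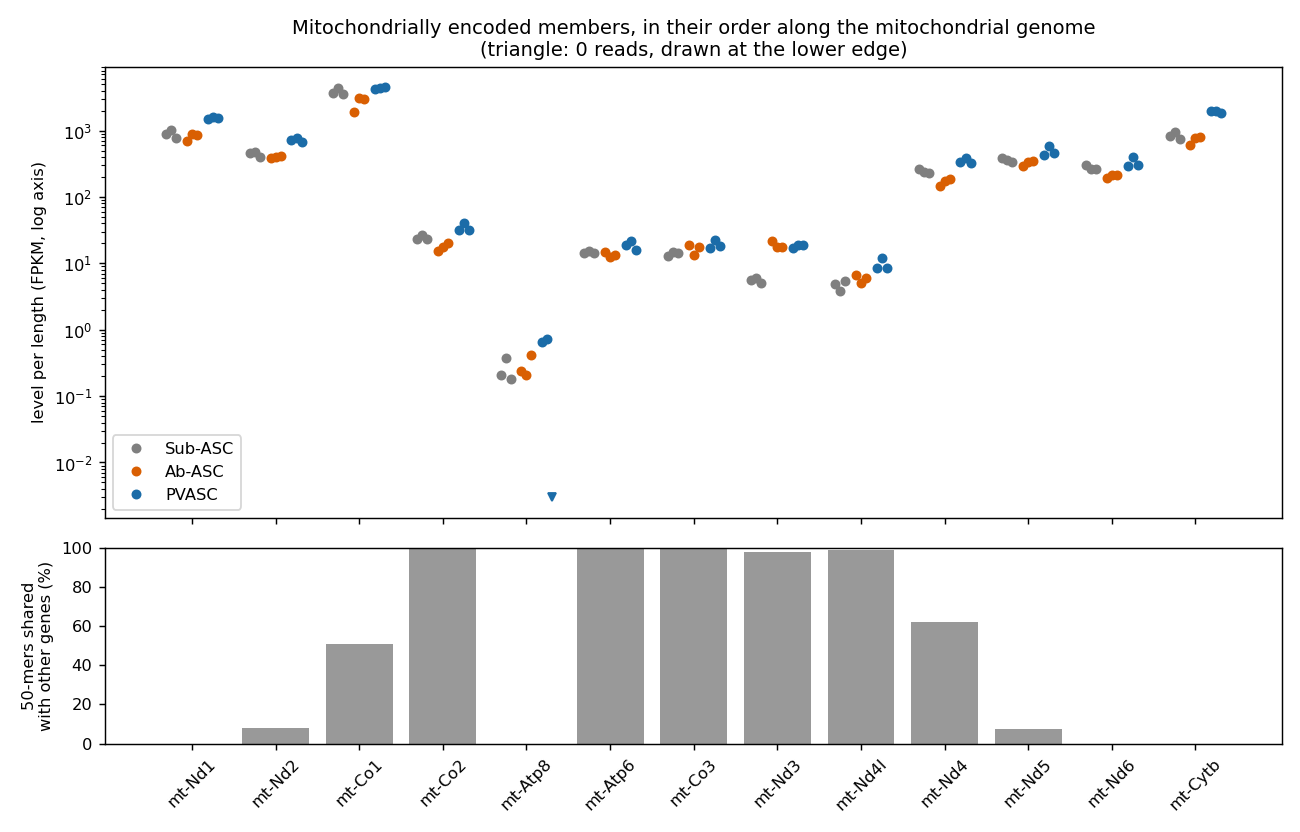
Top, level per length (FPKM, log axis) of the 13 mitochondrial members in each library, coloured by group and ordered along the mitochondrial genome. Bottom, percent of each member's 50-base stretches that also occur in another annotated gene. The 5 members at 98.0% or more have group means of 4.65 to 34.8 FPKM, and the others, apart from mt-Atp8, of 169 to 4354 FPKM.

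The mitochondrial genome also holds ribosomal and transfer RNA rows. The ribosomal RNA mt-Rnr2 was higher in PVASCs than in Sub-ASCs (log2 fold change 0.28 ± 0.07, adjusted p = 0.0048) and lower in Ab-ASCs (-0.34 ± 0.07, adjusted p = 0.0012), and mt-Rnr1 was lower in Ab-ASCs (-0.47 ± 0.08, adjusted p = 1.2e-04) and did not pass in PVASCs (0.04 ± 0.08). Against mt-Cytb at 1.03 ± 0.10, mt-Co1 at 0.00 ± 0.13 and mt-Nd6 at 0.09 ± 0.11 in PVASCs, the fitted changes on this genome had different sizes. Of 10 tested tRNA rows, 5 were higher and 2 lower in PVASCs than in Sub-ASCs, from 2.22 ± 0.27 for mt-Tl2 to -0.87 ± 0.11 for mt-Tc (adjusted p = 1.0e-05 and 2.3e-05), and 4 were higher and 4 lower in Ab-ASCs, the latter near the shares of all genes (37.0% and 38.3%). No test of the differences between these genes was run.

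The promoters of nuclear members were searched for letters of known motifs. Of the 93 nuclear symbols, 76 had a window of 250 bases before to 50 bases after a gene start in RefSeq (GRCm38.p6), and these were searched on both strands for motifs of factors known to regulate respiratory genes, with the letters chosen when the results were known. The NRF1 letters CGCATGCG were in 13.2% of the member windows and in 1.87% of the 32851 windows of all genes. The ETS letters CCGGAAG, which GABP reads, were in 22.4% against 8.86%, and the YY1 letters AAGATGGC in 13.2% against 2.75%. At least 1 of these 3 was in 42.1% of member windows and 12.6% of all windows. The ERR letters TCAAGGTCA were in 2.63% against 0.423%, and the hypoxia element ACGTG in 25% against 19.6%. Each member had 1 window, while the windows of all genes were neither reduced to 1 per gene nor limited to expressed genes. The percentages are therefore from unlike sets.

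Of the 32 members with NRF1, ETS or YY1 letters, 31 were higher and 1 did not pass in Ab-ASCs against Sub-ASCs (median 0.72), and 22 were higher and 1 lower in PVASCs (median 0.40). Of the 42 tested members without them, 31 were higher and 4 lower in Ab-ASCs (median 0.64), and 25 were higher and 5 lower in PVASCs (median 0.34). Among all genes 37.0% were higher and 38.3% lower in Ab-ASCs, and 34.7% and 35.7% in PVASCs. No test was run between the members with and without the letters.

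The 250 bases before the gene start are given for a pair of members with motif letters (in capitals) and a pair that went against the common order and has none in these bases. The searched window of Cox7a1 holds the hypoxia element beyond the printed bases. The windows lie at chr5:115348959-115349208 on the minus strand for Cox6a1, chr9:44920743-44920992 on the minus strand for Atp5l, chr7:4753095-4753344 on the minus strand for Cox6b2 and chr7:30183921-30184170 on the plus strand for Cox7a1 (RefSeq, GRCm38.p6).
Cox6a1: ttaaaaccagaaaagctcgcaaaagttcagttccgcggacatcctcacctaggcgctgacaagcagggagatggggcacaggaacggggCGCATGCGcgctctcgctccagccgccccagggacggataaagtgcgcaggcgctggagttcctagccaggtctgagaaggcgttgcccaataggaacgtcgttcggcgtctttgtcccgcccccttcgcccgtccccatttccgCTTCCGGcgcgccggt
Atp5l: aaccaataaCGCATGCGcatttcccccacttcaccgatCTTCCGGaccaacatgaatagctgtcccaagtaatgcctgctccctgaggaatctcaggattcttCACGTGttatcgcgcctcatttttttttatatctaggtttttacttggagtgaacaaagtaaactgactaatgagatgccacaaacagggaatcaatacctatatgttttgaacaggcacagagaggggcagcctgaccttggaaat
Cox6b2: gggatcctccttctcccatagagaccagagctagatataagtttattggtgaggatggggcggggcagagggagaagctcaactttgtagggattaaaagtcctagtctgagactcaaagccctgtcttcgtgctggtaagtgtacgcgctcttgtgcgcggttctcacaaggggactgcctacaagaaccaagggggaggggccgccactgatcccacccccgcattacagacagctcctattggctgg
Cox7a1: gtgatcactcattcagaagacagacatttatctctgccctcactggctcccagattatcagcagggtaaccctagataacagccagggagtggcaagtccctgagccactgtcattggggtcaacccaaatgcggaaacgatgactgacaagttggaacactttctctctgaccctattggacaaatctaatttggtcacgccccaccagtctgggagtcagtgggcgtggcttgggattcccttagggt
In Cox6a1 the capitals are NRF1 and ETS letters, and in Atp5l NRF1, ETS and a palindrome that holds the hypoxia element on both strands. These matches describe letters and not bound sites.

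Other genes of mitochondrial energy metabolism were read from lists beside the members, against shares over all genes of 34.7% higher and 35.7% lower in PVASCs and 37.0% and 38.3% in Ab-ASCs, each against Sub-ASCs, and of 24.7% and 32.1% in PVASCs against Ab-ASCs. Of 13 genes of the tricarboxylic acid cycle, which feeds the chain with NADH and succinate, 10 were higher and 1 lower in Ab-ASCs than in Sub-ASCs (median 0.71), and 9 were higher in PVASCs (median 0.38). In PVASCs against Ab-ASCs 10 of them were lower and 1 was higher, Suclg2, a subunit of succinyl-CoA ligase (1.10 ± 0.08, adjusted p = 3.3e-07). Idh3a, a subunit of isocitrate dehydrogenase, rose by 1.67 ± 0.05 in Ab-ASCs and 1.28 ± 0.05 in PVASCs (adjusted p = 2.3e-11 and 2.6e-10). Of 77 tested mitochondrial ribosomal proteins, which translate the 13 mitochondrial members, 70 were higher in Ab-ASCs (median 0.66), 45 were higher and 3 lower in PVASCs (median 0.25), and 64 were lower and 1 higher in PVASCs than in Ab-ASCs.

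Of 8 tested subunits and carriers of the chain outside the name pattern, 5 were higher and 1 lower in Ab-ASCs than in Sub-ASCs, and 3 were higher and 2 lower in PVASCs. Cox17, a copper chaperone for complex IV, was lower in both (-0.99 ± 0.15 and -0.62 ± 0.14, adjusted p = 8.4e-05 and 0.0017). Cycs, the electron carrier between complexes III and IV, rose by 1.92 ± 0.08 in Ab-ASCs and 1.36 ± 0.07 in PVASCs (adjusted p = 1.9e-10 and 4.9e-09). Of 4 tested carriers of adenine nucleotides and uncoupling, 4 were higher in Ab-ASCs and 3 in PVASCs. Slc25a5, which exchanges ADP for ATP across the inner membrane, rose by 1.77 ± 0.08 and 0.98 ± 0.07 (adjusted p = 4.2e-10 and 1.2e-07). Of 10 tested genes for cristae organization and porins, 8 were higher in Ab-ASCs and 7 in PVASCs, with the others not called. Of 31 tested assembly factors for complexes II to V, 16 were higher and 1 lower in Ab-ASCs (median 0.23), and 9 were higher and 5 lower in PVASCs (median 0.05), a share of higher genes under that of all genes.

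Of 8 complex I assembly factors outside the name pattern, 5 were higher and 2 lower in Ab-ASCs, and 3 were higher and 2 lower in PVASCs. Of 11 genes of coenzyme Q synthesis, 5 were higher and 2 lower in Ab-ASCs and 4 higher and 3 lower in PVASCs. Coq8a, needed for coenzyme Q synthesis, had log2 fold changes of -2.43 ± 0.27 and -1.46 ± 0.23 (adjusted p = 4.7e-06 and 9.4e-05), and Pdss1, which makes its side chain, of 1.74 ± 0.14 and 1.51 ± 0.14 (adjusted p = 1.6e-07 and 6.1e-07).

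Of 14 genes that replicate and transcribe mitochondrial DNA, 7 were higher and 3 lower in Ab-ASCs than in Sub-ASCs (median 0.17), and 2 were higher and 3 lower in PVASCs (median 0.12), the group with the most mitochondrial reads. Of 13 genes for processing and stability of mitochondrial RNA, 6 were higher and 1 lower in PVASCs (median 0.31) and 7 higher and 2 lower in Ab-ASCs (median 0.34), with Tbrg4 at 0.73 ± 0.07 in PVASCs and 1.41 ± 0.07 in Ab-ASCs.

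Among 10 tested nuclear regulators of respiratory genes, 5 were higher and 3 lower in Ab-ASCs than in Sub-ASCs, and 3 were higher and 4 lower in PVASCs, near the shares of all genes in PVASCs. Ppargc1a, a coactivator known to drive mitochondrial biogenesis, was at 2.14, 2.55 and 1.87 CPM in Sub-ASCs, 0.215, 0.355 and 0.312 CPM in Ab-ASCs and 0.550, 0.406 and 0.381 CPM in PVASCs. Its log2 fold change was -2.86 ± 0.29 in Ab-ASCs and -2.28 ± 0.25 in PVASCs (adjusted p = 2.0e-06 and 4.3e-06). In Ab-ASCs Pprc1 was higher (0.86 ± 0.07, adjusted p = 1.5e-07) and Gabpb2 lower (-1.05 ± 0.06, adjusted p = 1.2e-08). In PVASCs Gabpb1 was higher (0.62 ± 0.07, adjusted p = 8.8e-06) and Ppargc1b lower (-0.95 ± 0.20, adjusted p = 0.0011). Esrra, which encodes ERR alpha, was higher in both (1.26 ± 0.09 and 0.68 ± 0.09, adjusted p = 7.6e-08 and 2.5e-05).

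Markers of dividing cells and of other cell types were read beside the members. All 5 genes of dividing cells were higher than in Sub-ASCs in both other groups, and their summed level was 48.1 to 53.8 CPM in Sub-ASCs, 487 to 582 CPM in Ab-ASCs and 532 to 548 CPM in PVASCs. Between PVASCs and Ab-ASCs these sums overlapped, and 3 of the 5 were lower in PVASCs and 1, Mki67, was higher (0.81 ± 0.16, adjusted p = 0.0012). All 6 mesothelial markers were higher too, with sums of 1.26 to 2.28 CPM, 92.4 to 98.2 CPM and 39.3 to 40.4 CPM, and Upk1b and Lrrn4 were at 0 reads in Sub-ASCs. White adipocyte markers went the other way, with sums of 142 to 155 CPM, 35.0 to 38.2 CPM and 45.5 to 48.3 CPM, and Lep at 0 reads throughout. Brown adipocyte markers summed to 7.24 to 8.17 CPM, 7.89 to 9.64 CPM and 34.3 to 36.9 CPM, in PVASCs mostly from Dio2. Of the 3 tested, Dio2 was higher and Ppargc1a and Cox7a1 were lower in PVASCs against Sub-ASCs, and in Ab-ASCs 1 was higher and 1 lower. Both tested striated muscle markers of the 9 listed were higher than in Sub-ASCs in both groups, with sums of 1.63 to 1.98 CPM, 23.7 to 26.9 CPM and 14.4 to 18.2 CPM. Endothelial markers had the order of most mitochondrial members, PVASC above Sub-ASC above Ab-ASC, with sums of 149 to 159.8 CPM in Sub-ASCs, 51.1 to 52.2 CPM in Ab-ASCs and 436 to 439 CPM in PVASCs. Of these 4, 3 were higher and 1 lower in PVASCs than in Sub-ASCs, 4 were lower in Ab-ASCs than in Sub-ASCs and 4 were higher in PVASCs than in Ab-ASCs. Of 4 macrophage markers, 2 were higher and 2 lower than in Sub-ASCs in both groups, with sums of 224 to 229.5 CPM, 297 to 388 CPM and 286 to 295 CPM. The part of cell division or of other cell types in the members' differences was not tested.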

How the data were processed

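The libraries were made from total RNA with an NEBNext Ultra kit for bulk mRNA sequencing. The authors deposited 1 table of read counts per gene for the 9 libraries, with gene lengths and coordinates. The submitters' processing notes name CASAVA 1.8, Bowtie 0.12.2 and featureCounts 1.5.0-p3 and the builds mm8 and mm10, without roles. The strand setting is not given in the sources used here.

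From these counts all 9 libraries were fitted together in edgeR 4.0.16 (R 4.3.3) with filterByExpr, TMM scaling and quasi-likelihood F-tests, and p-values were adjusted by Benjamini-Hochberg over the 16526 genes tested, with a threshold of 0.05. CPM are TMM-scaled, and FPKM were computed from counts, gene length and library total. Sharing of 50-base stretches was read from GENCODE M21 transcripts (GRCm38). The fitting was tested on simulated data. DESeq2 1.42.0, RLE size factors, other filters and totals, a length correction, a replicate block, each library left out, a fold limit and summed mitochondrial copies were alternatives. Groups came from the titles and tissue labels. The members and lists were chosen with earlier results of these data known. The values of 1 nuclear member of complex I are not reported here, and it stays in the counts and sums. Apart from it, values in every library are given for the mitochondrial members, the paired isoforms, the catalytic core members and, per complex and comparison, the nuclear members with the largest rise and fall. From each list at most the 2 largest called changes in each direction are named. Ndufa1, Ndufa13, Ndufb5, Ndufb6, Ndufaf4, Uqcrh, Cox5a, Atp5e and Atp5l were named in addition, after their values were seen. Replicate numbers were checked for pairing, and same-numbered libraries showed no strong shared deviation.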

Additional observations from a re-analysis of the deposited data

How the results depend on the processing

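Counts of called members stayed within 1.5 times the reported ones under most alternatives, and no direction was reversed. Counting only called members whose log2 fold change was 1 or more in size, nuclear members numbered 4 higher and 2 lower in PVASC against Sub-ASC, 14 higher and 2 lower in Ab-ASC against Sub-ASC, and 1 higher and 0 lower in PVASC against Ab-ASC, and mitochondrial members 2 higher and 0 lower, 1 higher and 0 lower, and 1 higher and 0 lower in the same order, since this limit admits fewer genes. Mitochondrial members higher in Ab-ASC than in Sub-ASC numbered 2 with no low-count filter and 2 with the reads of the chromosome 1 copies added. Leaving out 1 library at a time gave 1 to 2 for that count and 0 to 1 for mitochondrial members lower in PVASC than in Ab-ASC, both changing without Ab-ASC replicate 2; the cause was not tested. Nuclear members lower in PVASC than in Ab-ASC ranged from 42 to 68 in these fits, and were 53 with DESeq2.

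Deviations of same-numbered libraries correlated at -0.051 to 0.095. These values show no strong pairing by replicate number, but they cannot exclude that same-numbered libraries share an origin. With the replicate block, nuclear members were 57 higher and 8 lower in PVASC against Sub-ASC, 74 and 6 in Ab-ASC against Sub-ASC, and 3 and 63 in PVASC against Ab-ASC, and mitochondrial members 8 and 0, 1 and 4, and 8 and 0. Of 229 calls of single members, 6 were lost with DESeq2, 6 with RLE size factors and 2 with the block, and 118 of 2061 in the fits that left out 1 library. Members with few reads, such as Cox7a1 and Cox6b2, are limited by depth.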
